A study of Homo sapiens with 4 samples.

Results

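Circular RNAs from zinc finger transcription factor genes were examined in human embryonic kidney cells with and without depletion of the ribonuclease DIS3. Members were all circles whose host gene symbol began with ZNF, ZFP, ZSCAN, ZKSCAN or ZBTB followed by a digit, leaving out ZNF609 and ZKSCAN1. The choice used names alone, not levels. It gave 636 circles from 214 host genes, out of 45182 circles from 8230 hosts in the series. ZNF symbols held 557 circles from 181 hosts, ZBTB 39 from 15, ZSCAN 20 from 7, ZFP 13 from 7 and ZKSCAN 7 from 4. Of all these, 148 circles from 69 hosts lay on chromosome 19, which carried more of the member hosts than any other chromosome.

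Flp-In T-REx 293 is a human embryonic kidney line with a single recombination site for inducible transgenes. Both groups carried an integrated, inducible Flag-HA DIS3 and, per the column names, were grown without doxycycline; blasticidin and hygromycin B were in the medium of all cultures. The control line kept its endogenous DIS3. In KD clone 8 the endogenous gene had been targeted with CRISPR/Cas9, with some DIS3 left in the uninduced state, which is why the submitters speak of a knock down. Each group held 2 libraries of rRNA-depleted total RNA, labelled biological replicates. Only 1 clone was profiled, so clone and DIS3 depletion cannot be told apart, and p-values measure the spread between these libraries.

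A circular RNA (circle) forms when a downstream splice donor joins an upstream splice acceptor, a step called backsplicing, so that an internal stretch of a pre-mRNA is closed on itself. It has no free end for an exonuclease, while the linear mRNA of the same gene does. C2H2 zinc finger proteins bind DNA through arrays of zinc-coordinating fingers and form the largest class of human transcription factors. Many genes of the class, above all the clusters on chromosome 19, encode a KRAB domain that recruits the corepressor TRIM28 and silences transposable elements. ZBTB proteins pair their fingers with a BTB domain, which binds other corepressors, and ZSCAN and ZKSCAN proteins carry a SCAN domain for pairing.

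The promoters of the hosts whose linear RNA passed the test under every alternative tried (ZBTB46, ZNF536, ZNF644 and ZNF236) are printed as examples of the class, 5′ to 3′ on the gene's strand, from RefSeq on GRCh38.p14, 250 bases before to 50 after the gene's start. Capitals mark the GC box, GGGCGG or CCGCCC, and adjoining boxes run together. The ZBTB46 promoter lies on the minus strand at chr20:63831215-63831514, ZNF536 on the plus strand at chr19:30225342-30225641, ZNF644 on the minus strand at chr1:91021986-91022285 and ZNF236 on the plus strand at chr18:76822307-76822606.
ZBTB46: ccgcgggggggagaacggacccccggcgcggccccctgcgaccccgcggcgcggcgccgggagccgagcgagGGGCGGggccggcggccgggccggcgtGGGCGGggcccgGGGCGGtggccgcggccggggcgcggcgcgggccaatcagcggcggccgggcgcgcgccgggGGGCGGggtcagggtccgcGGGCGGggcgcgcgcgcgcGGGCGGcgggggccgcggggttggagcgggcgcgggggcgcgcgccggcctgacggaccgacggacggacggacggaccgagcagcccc
ZNF536: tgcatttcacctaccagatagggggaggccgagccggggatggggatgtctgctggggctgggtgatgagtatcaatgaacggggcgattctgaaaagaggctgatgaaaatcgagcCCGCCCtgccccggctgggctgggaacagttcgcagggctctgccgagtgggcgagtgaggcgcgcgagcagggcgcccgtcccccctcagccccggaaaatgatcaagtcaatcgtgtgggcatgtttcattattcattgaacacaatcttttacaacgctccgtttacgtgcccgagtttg
ZNF644: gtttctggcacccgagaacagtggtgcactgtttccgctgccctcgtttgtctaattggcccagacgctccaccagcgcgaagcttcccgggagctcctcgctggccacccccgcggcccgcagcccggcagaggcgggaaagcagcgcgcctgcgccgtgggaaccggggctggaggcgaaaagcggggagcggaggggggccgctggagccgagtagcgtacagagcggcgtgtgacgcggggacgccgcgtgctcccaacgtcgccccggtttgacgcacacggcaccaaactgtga
ZNF236: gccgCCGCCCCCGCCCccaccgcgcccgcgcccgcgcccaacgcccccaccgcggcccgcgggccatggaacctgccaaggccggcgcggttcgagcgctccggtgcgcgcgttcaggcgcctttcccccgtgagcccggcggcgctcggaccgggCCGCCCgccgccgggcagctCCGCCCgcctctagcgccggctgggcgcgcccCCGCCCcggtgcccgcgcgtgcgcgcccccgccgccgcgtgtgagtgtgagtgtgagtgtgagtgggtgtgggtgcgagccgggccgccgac

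These promoters are rich in G and C, at 89.7% in ZBTB46, 82.7% in ZNF236, 69.7% in ZNF644 and 58.3% in ZNF536. ZBTB46 held 6 GC boxes, ZNF236 5, ZNF536 1 and ZNF644 0. A promoter was listed for 178 of the 214 hosts. Among them 60.1% held a GC box on either strand, against 44.6% of all 27305 listed promoters. The letters CCGGAAG or their reverse complement, the core bound by ETS factors, occurred in 36.0% of the zinc finger promoters and 10.7% of all. CCAAT or its reverse complement occurred in 37.6% and 35.7%. The listed promoters were not limited to genes with a circle in these cells, unlike those of the zinc finger hosts. These differences are therefore not shown to be a trait of zinc finger genes. A match is a run of letters and not a shown binding site.

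The level of a circle was deposited as FPBcirc, backsplice reads per gigabase of mapped sequence (FPB). Control replicates 1 and 2 held 1139 and 1172 reads of zinc finger circles, and KD replicates 1 and 2 held 7727 and 2648. Mapped depth ran from 19.6 and 20.4 gigabases in controls to 165 and 47.9 in KD, so that 1 read was worth 0.0511, 0.0489, 0.00604 and 0.0209 FPB. DIS3 itself gave 0 backsplice reads in both controls and 7 and 2 in KD, too few to check the labels. Of 8 kidney progenitor markers, circles were listed for EYA1, with 71 reads over all libraries, and for PAX2, with 2. The summed circle level of the kidney progenitor markers was 0.102 to 0.196 FPB in controls and 0.296 to 0.376 in KD, and its part in the results was not tested. Blood and fibroblast markers (3 each) had no circle. CPS1, a hepatocyte marker, had 3 reads and PECAM1, an endothelial one, 1, in KD alone, with sums of at most 0.0181 and 0.00604 FPB. Likewise the summed level of the 5 neurofilament and neuroendocrine markers was 0 in both controls and at most 0.0302 FPB in KD. As in any bulk sample, fewer cells of a type and less RNA per cell cannot be told apart.

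Zinc finger circles were a small and steady share of all circle signal, while many more of them were seen in the KD libraries. Their summed level was 58.2 and 57.3 FPB in controls and 46.7 and 55.3 FPB in KD. Both KD values lay below both controls, with means of 51.0 ± 6.06 against 57.8 ± 0.645 FPB (SD over 2 libraries each). The ratio was 0.882 (two-sided exact permutation test, p = 0.333, the smallest that 2 against 2 libraries can give). As a share of all circle signal they made up 2.33% and 2.12% in controls and 2.19% and 2.18% in KD, with a ratio of 0.982 (two-sided exact permutation test, p = 1.0), with overlapping groups.

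Chromosome 19 hosts and the rest of the family lay on opposite sides of their controls. On chromosome 19 the summed circle level was 8.28 and 6.80 FPB in controls and 9.70 and 9.37 FPB in KD, a ratio of 1.26. Zinc finger hosts elsewhere summed to 49.96 and 50.5 FPB in controls and 37.0 and 45.9 FPB in KD, a ratio of 0.825. Neither pair of groups overlapped (two-sided exact permutation test, p = 0.333 for each), and the difference between these ratios was not tested. The summed level of all circles in the series had a ratio of 0.897. As shares of that signal, the ratios were 1.41 for chromosome 19 hosts and 0.917 for those elsewhere. Circles under a mean of 0.174 FPB, the level filter of the tests, summed to 11.3 and 11.9 FPB in controls and 16.3 and 19.2 in KD, and those above it went from 46.9 and 45.4 to 30.4 and 36.1 FPB. The filter used these same libraries, and 1 read is worth more FPB in controls, so a circle can pass on few control reads. The split therefore cannot show that abundant circles fell and rare ones rose.

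In controls 142 and 138 zinc finger circles had at least 1 read, and in KD 482 and 333. At the depth of the shallowest library 142 and 137 would be expected for the controls against 244 and 243 for KD, a ratio of 1.75 where the deposited depths gave 2.91. Over all hosts the same correction gave 8357 and 8475 circles in controls and 13652 and 13810 in KD. The excess was in circles of 1 or 2 reads: with at least 3 reads asked for, controls would show 90 and 80.3 and KD 83.2 and 98.8. On chromosome 19 the expected numbers with at least 1 read were 32 and 28.7 against 63.5 and 53.6.

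The signal sat in few genes. The first 10 hosts by mean summed level held 51.9% of it, and 75 of the 214 hosts had 20 or more reads over all libraries. ZNF236, a gene described as glucose-responsive, led with 4.50 and 5.09 FPB in controls and 3.64 and 5.36 in KD, where the groups overlapped. ZBTB44, a BTB factor, stood at 4.14 and 3.72 against 3.44 and 4.59 FPB, also overlapping. ZNF148, a factor that binds GC-rich promoters, went from 4.76 and 3.72 to 2.25 and 2.296 FPB without overlap, but did not pass the test (log2 change -0.88, SE 0.32, limma adjusted p = 0.156).

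**Figure D1:**
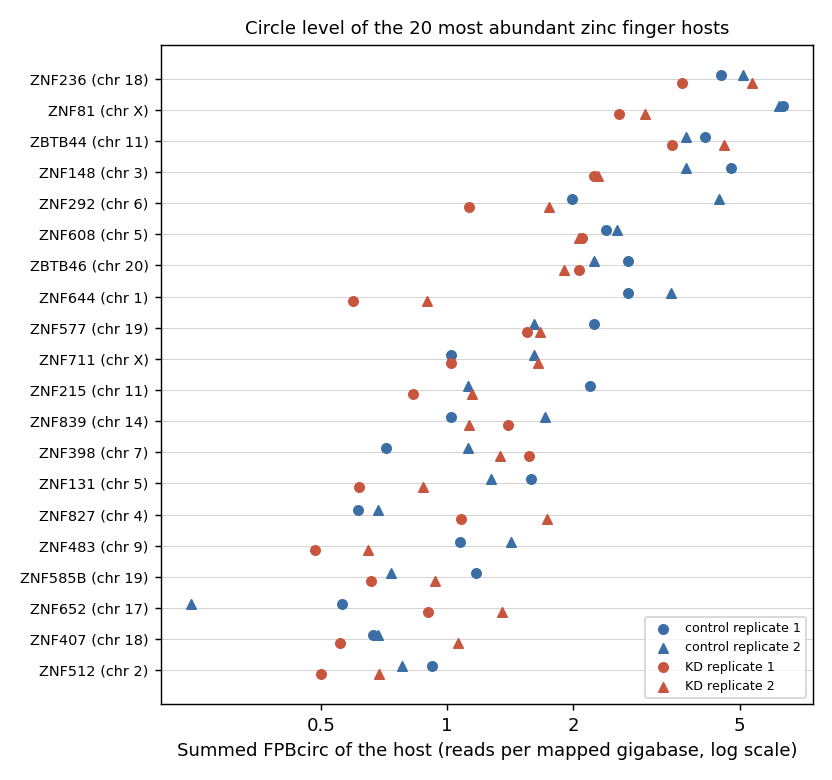
Summed circle level (FPBcirc, log axis) of the 20 zinc finger hosts with the highest mean, with 1 point per library, blue for control and red for KD, and circles and triangles for replicates 1 and 2. ZNF81 and ZNF644 stand apart with both KD points well to the left of both controls, while ZNF236 and ZBTB44 overlap.

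The circles of ZNF644 and ZNF81 fell. Hosts were tested on circle levels summed per gene with limma, on log2(value + 0.0349 FPB), for those with a mean of at least 0.174 FPB. Folds on that scale understate the change of low genes. Of the 214 hosts 46 passed this filter, with the last inside at 0.183 FPB (ZNF544) and the next at 0.167 (ZKSCAN5). Over all 2393 hosts tested 1.38% rose and 2.17% fell at an adjusted p under 0.05. Among the zinc finger hosts 0 rose and 2 fell. At an unadjusted p under 0.05 the counts were 4 higher and 6 lower of 46, against 6.77% and 11.7% of all hosts. On recovered reads edgeR called 0 and 1 (1.55% and 0.836% over all) and DESeq2 0 and 2 (4.93% and 4.85%). Their median log2 change was -0.05, against -0.06 over all hosts, and its sign turned with DESeq2 (0.09), edgeR (0.14) and without KD replicate 1 (0.04).

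ZNF644 encodes a partner of the G9a and GLP histone H3 lysine 9 methyltransferases. Its circles summed to 2.71 and 3.42 FPB in controls and 0.598 and 0.897 FPB in KD. Both KD libraries lay below both controls (log2 change -2.00, SE 0.40, limma adjusted p = 0.0192). ZNF81, a KRAB gene on chromosome X, had 6.34 and 6.21 FPB in controls and 2.57 and 2.96 in KD, again with no overlap (log2 change -1.18, SE 0.30, limma adjusted p = 0.0418). Without KD replicate 1 neither passed, at an adjusted p of 0.632 for both, and without KD replicate 2 they stood at 0.238 and 0.243, with fold changes still between -2.28 and -1.07. The linear RNA of both genes fell as well.

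The remaining large differences did not pass. Higher in KD were ZNF536 (0.460 and 0.0978 FPB in controls, 1.14 and 0.793 in KD; log2 change 1.95, limma adjusted p = 0.138), a repressor of neuronal differentiation, and ZNF652 (0.563 and 0.245 against 0.901 and 1.36 FPB; 1.48, adjusted p = 0.169). ZNF362 had 0.153 and 0 FPB in controls and 0.490 and 0.501 in KD (adjusted p = 0.225), and ZNF827, known from telomere chromatin, differed by 1.04 on the log2 scale (adjusted p = 0.253). ZNF793 differed by 1.49 (adjusted p = 0.312). Lower were ZNF292 at -1.06 (adjusted p = 0.201), ZNF507 at -1.58 (0.201) and ZNF483 at -1.09 (0.240).

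Circle by circle, none of the zinc finger members passed. Of 636 circles 62 from 38 hosts reached a mean of 0.174 FPB, 12 of them with 0 reads in a control, and 15 of them on chromosome 19. The last inside was a ZBTB46 circle at 0.180 FPB and the first outside a ZNF3 circle at 0.172. Over all 2427 circles tested 0.0824% rose and 0.453% fell, and among the zinc finger circles 0 rose and 0 fell (limma). At an unadjusted p under 0.05 there were 0 higher and 5 lower, against 5.11% and 14% of all circles. These were circles of ZNF644, ZNF81, ZNF236, ZNF483 and ZNF292. The balance of that count turned with the method: it was 10 higher and 2 lower with edgeR (12% and 6.3% over all), 8 and 3 with DESeq2 (12.9% and 7.09%) and 7 and 3 after centring each library on its median (11% and 7.62%). After adjustment edgeR called 0 and 0 (0.0412% and 0% over all) and DESeq2 0 and 1 (7.13% and 2.68%). The median log2 change was -0.09, against -0.33 over all circles tested, and it was 0.13 for the 15 on chromosome 19. These signs were not stable: the first was 0.17 with DESeq2, 0.18 with edgeR and 0.11 without KD replicate 1, and that of chromosome 19 was -0.22 without control replicate 2 and 0.87 with either edgeR or DESeq2.

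The most abundant single circle was that of ZNF81, at chrX:47846105-47895940 (hg38), with 121 and 125 reads in controls and 411 and 142 in KD. In depth-scaled terms this was 6.19 and 6.12 against 2.48 and 2.96 FPB (log2 change -1.17, SE 0.27, limma adjusted p = 0.0914). The main ZNF644 circle, chr1:90937485-90982370, had 44 and 67 against 68 and 38 reads, or 2.25 and 3.28 against 0.411 and 0.793 FPB (log2 change -2.18, SE 0.43, limma adjusted p = 0.0713). In both circles the KD libraries lay below both controls.

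None of the other circles among the 10 most abundant passed. The ZBTB44 circle of 1074 bases at chr11:130260856-130261929 had 4.14 and 3.72 FPB in controls and 3.41 and 4.42 in KD. The ZNF608 circle, which spans only 256 bases at chr5:124701014-124701269, had 1.79 and 1.47 against 1.71 and 1.77 FPB. That of ZBTB46, a BTB factor of classical dendritic cells and endothelium, at chr20:63775678-63790790, had 2.25 and 2.25 against 1.96 and 1.69 FPB. Those of ZNF148 (chr3:125313308-125331238) and ZNF292 (chr6:87215903-87218731), the latter a large protein mutated in neurodevelopmental disorders, differed by -0.51 and -1.10 on the log2 scale with adjusted p of 0.359 and 0.258. The ZNF398 circle (chr7:149153945-149154340) had 0.716 and 1.03 FPB in controls and 1.43 and 1.19 in KD (log2 change 0.58, adjusted p = 0.404).

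Apart from the ZBTB44 and ZBTB46 circles given above, the circles named from the smaller families had low levels. The ZBTB40 circle had 1.64 and 0 FPB in controls and 0.435 and 0.397 in KD, and the ZBTB11 circle 0.614 and 0 against 0.121 and 0.125. In both the controls differed from each other more than the groups did. The leading ZSCAN25 circle had 0.0511 and 0.342 against 0.230 and 0.250 FPB. The leading ZKSCAN5 circle, below the filter, had 0.0511 and 0 against 0.278 and 0.271 FPB. No ZFP circle reached a mean above 0.0414 FPB, that of ZFP90.

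ZNF236 combined steady circles in sum with a different mix of them. It had 41 circles, more than any other member (ZNF711 had 16, ZNF638 14 and ZNF827 13, and ZNF839, ZNF652 and ZNF451 12 each). Of these circles 19 began at the same position, 76849526 on chromosome 18. The circle from there to 76881512, spanning 31987 bases, held 1.89 and 3.03 FPB in controls and 0.586 and 1.06 in KD (log2 change -1.56, SE 0.43, limma adjusted p = 0.132). The circle from the same start to 76851939, spanning 2414 bases, held 0.767 and 0.489 against 0.852 and 1.36 FPB (log2 change 0.78, SE 0.44, limma adjusted p = 0.348). Neither single change passed, and the groups did not overlap in either circle.

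As a share of the gene's backsplice reads, the longer circle made up 42.0% (95% Clopper-Pearson interval 31.6 to 53.0) and 59.6% (49.5 to 69.1) in controls. In KD it made up 16.1% (13.3 to 19.3) and 19.8% (15.1 to 25.3). The intervals of each KD library lay below those of each control, and they cover counting error only. This comparison was added after the values were seen. It covered the 14 hosts with 2 or more circles and at least 20 reads in each library, and in ZNF236 alone were all intervals apart. How often all intervals were apart among the other hosts of the series was not counted. Intervals narrow with read number, so hosts with more reads separate more easily. In 6 of the 14 the groups did not overlap, where the same held for 45% of the 476 hosts of the series that met these limits. The leading circle of ZNF577 had 47.7% and 66.7% in controls and 36.6% and 43.8% in KD, that of ZNF148 54.8% and 76.3% against 81.5% and 85.5%, and that of ZNF608 74.5% and 57.7% against 81.6% and 85.9%.

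**Figure D2:**
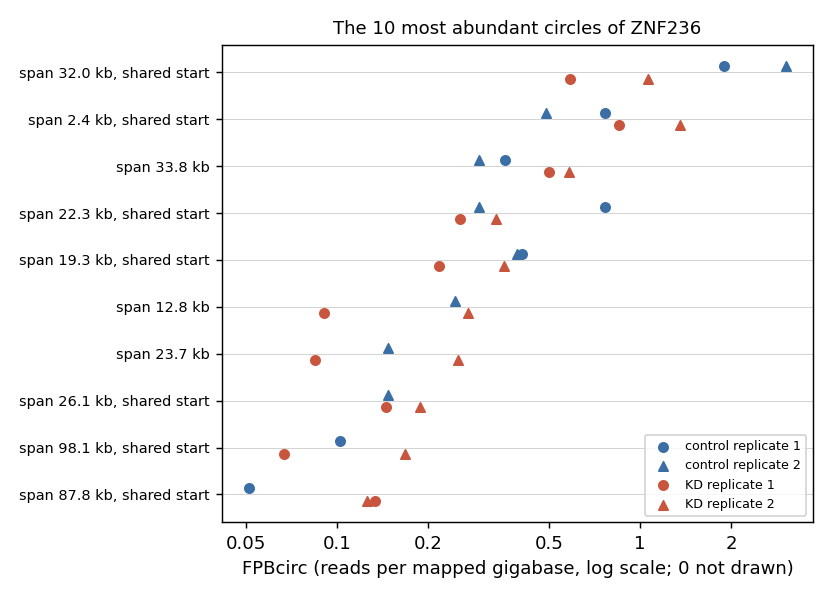
FPBcirc (log axis) of the 10 most abundant ZNF236 circles, each named by its genomic span, with 1 point per library and libraries at 0 not drawn; "shared start" marks circles that begin at the position used by 19 of the 41. The 31987-base circle has its KD points left of its controls, and the 2414-base circle has them to the right.

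In linear RNA 23 zinc finger hosts passed the test, with ZNF536 and ZNF850 leading the risers and ZBTB46 and ZNF644 the fallers. The linear level (FPBlinear, the linear signal of the host per mapped gigabase, derived from the deposited scores) exists only where a circle was read, so 49 of the 214 hosts had a value in all 4 libraries, and another 77 had it in both KD libraries but not in both controls. Over all 2547 hosts so tested 10.8% rose and 23.8% fell in KD. Of the 49 zinc finger hosts 15 rose and 8 fell (limma), with a median log2 change of 0.09 against -0.21 over all. Whether these shares differ from those of all hosts was not tested. By family, 13 of 39 ZNF hosts rose and 5 fell, 1 of 6 ZBTB hosts rose and 2 fell, 1 of 3 ZSCAN hosts rose and 1 fell, and the 1 ZFP host did not pass.

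On chromosome 19, 5 of 14 hosts rose and 0 fell, with a median of 0.20 (unadjusted p under 0.05 in 5 and 0). The calls there changed without KD replicate 2, where the median was 0.25. With limma without trend and robust moderation 4 rose and 1 fell there, against 118 and 223 of all 2547 hosts. In the main fit 10 of 35 hosts elsewhere rose and 8 fell, with a median of 0.01. ZNF536 had the largest rise, from 1.06 and 0.893 FPB in controls to 4.47 and 3.66 in KD (log2 change 2.02, SE 0.28, limma adjusted p = 1.31e-10). ZNF850 went from 5.83 and 15.2 to 21.7 and 27.9 FPB, with controls far from each other (log2 change 1.39, SE 0.27, adjusted p = 1.69e-05). Without control replicate 1, KD replicate 1 or KD replicate 2 ZNF850 no longer passed, at an adjusted p of 0.243, 0.462 and 0.473.

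The other chromosome 19 risers were ZNF577, ZNF567 and ZNF420. ZNF577 went from 0.537 and 0.367 to 1.01 and 1.06 FPB (log2 change 1.16, adjusted p = 0.00328) and ZNF567 from 5.57 and 3.96 to 10.8 and 10.0 FPB (1.14, adjusted p = 0.000168). ZNF420, known as a KRAB regulator of p53, went from 8.81 and 6.996 to 12.4 and 14.1 FPB (0.75, adjusted p = 0.0161). In each the KD libraries lay above both controls. ZNF577 lost its call without KD replicate 1 (adjusted p = 0.0789) and without control replicate 2 (0.109), ZNF567 without control replicate 2 (0.127), and ZNF420 without either control (0.115 and 0.367).

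Risers on other chromosomes included ZNF236, from 2.39 and 2.34 FPB in controls to 5.78 and 5.47 in KD (log2 change 1.24, SE 0.27, limma adjusted p = 8.08e-05). ZNF516, a factor of brown fat, went from 1.24 and 1.90 to 3.66 and 3.34 FPB (log2 change 1.17, adjusted p = 0.000295). ZNF445, a KRAB protein that maintains imprinting, went from 4.43 and 4.39 to 9.38 and 8.49 FPB (1.01, adjusted p = 0.00114). ZNF711, an X-linked gene of intellectual disability, was the most abundant linear host, at 103 and 37.8 FPB in controls and 121 and 193 in KD (1.30, adjusted p = 0.021). Its KD replicate 1 was closer to control replicate 1 than the controls were to each other. Without KD replicate 1 it stood at an adjusted p of 0.194, without KD replicate 2 at 0.225 and without control replicate 2 at 0.244. The rest of the risers were ZNF800, ZNF197, ZSCAN25, ZNF398, ZBTB44 and ZNF3, with log2 changes from 0.64 to 0.93. Without control replicate 1 ZNF516 stood at an adjusted p of 0.167, ZNF445 at 0.0842, and these last 6 at 0.152 to 0.378. Without control replicate 2 ZNF445 stood at 0.0848 and the 6 at 0.056 to 0.303. ZNF800 also lost its call without KD replicate 2 (0.138), and ZSCAN25 without KD replicate 1 (0.171).

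Of the fallers, ZBTB46 was lowest, at 0.665 and 1.25 FPB in controls and 0.136 and 0.141 in KD (log2 change -2.45, SE 0.37, limma adjusted p = 4.67e-09). ZNF644 went from 11.2 and 12.1 to 4.02 and 6.25 FPB (-1.21, adjusted p = 5.99e-05), and ZNF292 from 4.75 and 4.43 to 1.90 and 2.60 FPB (-1.04, adjusted p = 0.00117). ZNF81 went from 2.86 and 1.76 to 1.15 and 1.38 FPB (-0.82, adjusted p = 0.0181). All 4 had both KD libraries below both controls. ZNF638, a DNA-binding protein that silences unintegrated retroviral DNA, ZBTB10, a repressor of the gene for Sp1, ZNF512 and ZSCAN12 fell by 0.88, 0.80, 0.79 and 0.73 on the log2 scale. Apart from ZBTB46 and ZNF644, the fallers lost their calls without control replicate 1 (adjusted p from 0.0743 to 0.460) and, but for ZNF81 at 0.037, without control replicate 2 (0.0733 to 0.401). Without KD replicate 1 ZNF81, ZBTB10 and ZSCAN12 lost theirs too (0.0977, 0.328 and 0.142). ZFP30 was at 15.3 and 18.2 FPB in controls and 2.65 and 17.4 in KD, so that 1 library set its value of -1.29 (adjusted p = 0.571). ZNF131 and ZNF483 missed the threshold at 0.055 and 0.0587.

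**Figure D3:**
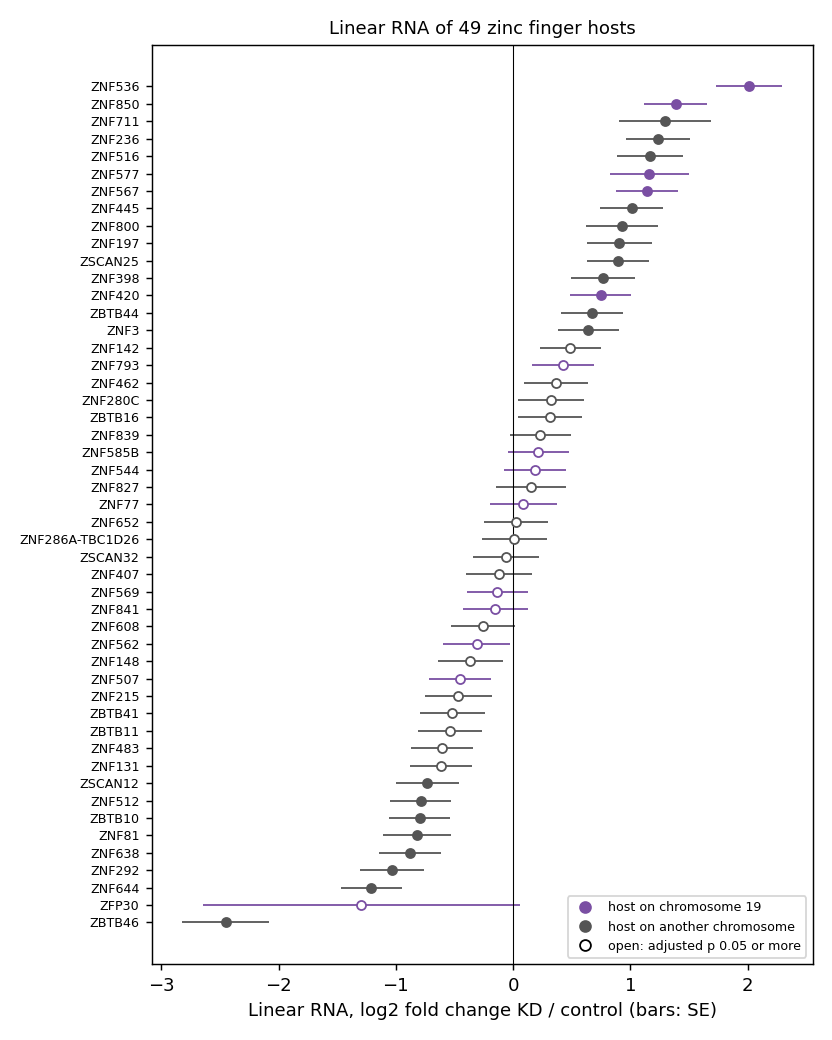
Log2 fold change (KD over control) of linear RNA for the 49 zinc finger hosts with a value in all 4 libraries, with bars of 1 SE, purple for chromosome 19 hosts and filled points for an adjusted p under 0.05. Filled purple points lie to the right of 0 in all 5 cases, and ZBTB46 and ZNF536 mark the ends at -2.45 and 2.02.

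Circles and linear RNA of a host come from the same libraries and the same depth scaling, and 41 zinc finger hosts were in both fits. ZNF644 fell in both, by 2.00 for summed circles and 1.21 for linear RNA on the log2 scale, and so did ZNF81, by 1.18 and 0.82. ZNF536 had changes of 2.02 for linear RNA and 1.95 for circles, although its circles did not pass. ZNF292 had -1.04 for linear RNA and -1.06 for circles, which did not pass either.

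The ratio of summed circles to linear RNA showed no call among the 49 hosts, with 0 higher and 0 lower (limma). Over all hosts 0.0785% were called in each direction. At an unadjusted p under 0.05 there were 3 higher and 5 lower, against 118 and 196 of all 2547 hosts. The median log2 change of the ratio was -0.32, against -0.08 over all. Of the 49 hosts 36 were below 0, against 1383 of all 2547. On chromosome 19 the median was -0.43. ZNF577 had the smallest p, with ratios of 4.19 and 4.40 in controls and 1.54 and 1.57 in KD (log2 change -1.40, SE 0.28, adjusted p = 0.253). ZNF236 went from 1.88 and 2.18 to 0.629 and 0.980 (-1.35, SE 0.34, adjusted p = 0.296). In both genes linear RNA rose, while the summed circles had log2 changes of -0.24 and -0.11 and did not pass.

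ZBTB46 stood at the other end. Its ratio was 4.08 and 1.80 in controls and 15.2 and 13.5 in KD (log2 change 2.14, SE 0.47, limma adjusted p = 0.256). Its circles stayed at 2.71 and 2.25 FPB in controls and 2.07 and 1.90 in KD while the linear RNA fell. The ratios of ZNF652 and ZBTB10 were higher by 1.45 and 1.31 on the log2 scale (adjusted p = 0.400 and 0.381). Those of ZNF562, ZNF197 and ZNF142 were -1.49, -1.46 and -1.45 (adjusted p from 0.318 to 0.333). The deposited CIRCscore, the same ratio for a single circle, was tested for 49 zinc finger circles, with 0 higher and 0 lower (limma). Over all 1823 circles 0% rose and 0.11% fell. At an unadjusted p under 0.05 there were 1 higher and 8 lower, against 54 and 326 of all 1823 circles. The median was -0.45, against -0.42 over all circles. The 31987-base ZNF236 circle differed most, with scores of 0.793 and 1.30 in controls and 0.103 and 0.196 in KD (log2 change -2.80, SE 0.47, adjusted p = 0.132).

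**Figure D4:**
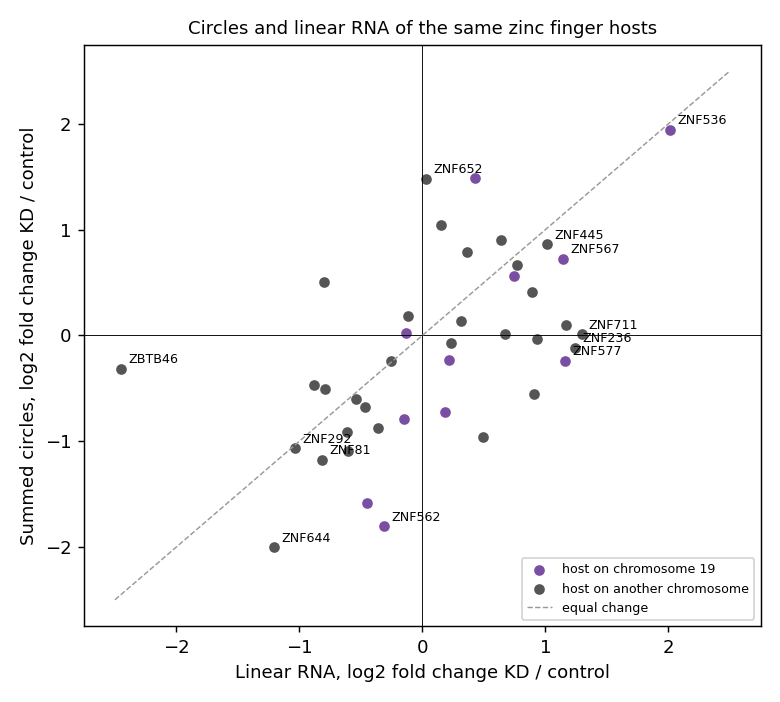
Log2 fold change (KD over control) of summed circles against that of linear RNA for the 41 zinc finger hosts in both fits, purple for chromosome 19, with a dashed line of equal change. ZNF644, ZNF81 and ZNF292 lie low in both, ZNF536 high in both near the line, ZBTB46 far left of it, and ZNF711, ZNF236 and ZNF577 to its right near a circle change of 0.

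Fewer circles, of shorter span, were listed per zinc finger host than per host in the whole table. They had 2.97 circles per host (median 2) against 5.49 (median 3) over all hosts, and 43.9% of them had a single circle against 29.2%. The median genomic span was 5248 bases against 9919.5, from 144 bases in ZNF711 to 289726 in ZNF407. Where the scores were known in all 4 libraries, the median CIRCscore was 0.0804 against 0.0352, and the median linear level 5.24 against 7.96 FPB. Of the zinc finger circles 9.59% were read in all 4 libraries, against 5.79% of all circles, while 66.7% were read in KD alone and 6.45% in controls alone, against 69.6% and 9.75% over all circles. These are descriptions of the deposited list, without a test.

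On chromosome 19 the 69 hosts of the family had 2.14 circles each, a median span of 4394 bases, a median CIRCscore of 0.0572 and a median linear level of 7.32 FPB. The 379 other chromosome 19 hosts had a median span of 3906 bases, a median CIRCscore of 0.0193 and a median linear level of 15.2 FPB. The 8 chromosome 19 hosts with the most circle signal were ZNF577, ZNF585B, ZNF536, ZNF567, ZNF420, ZNF507, ZNF569 and ZNF793, from 1.77 FPB for ZNF577 down to 0.374 for ZNF793. ZNF585B had 1.18 and 0.734 FPB in controls and 0.659 and 0.939 in KD, and ZNF569 0.256 and 0.489 against 0.610 and 0.209, both overlapping. Paralogues in these clusters are alike in sequence, so reads may be split among them and their counts are uncertain.

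Most circles lay inside their genes, away from the ends. Of the 636, 552 were placed within the RefSeq gene of the same symbol, covering a median of 12.4% of its length. The others are not shown to lie outside their genes, since the strand was not known for every host. Of these 552, only 9 began within 1000 bases of the gene's start and 0 ended within 1000 bases of its end. Their median distance to the gene's end was 16340 bases. Backsplicing closes an internal stretch of its host, so such positions follow largely from what a circle is. They were not counted for other hosts, so no trait of zinc finger circles is shown. Many C2H2 genes encode their finger array in the last exon, and the exon content of the circles was not examined. RefSeq classed 204 hosts as protein-coding, with 618 circles, 6 as long noncoding RNA, with 14 circles, and 4 as transcribed pseudogenes, with 4. The antisense and readthrough hosts among these (such as ZNF337-AS1 and ZNF286A-TBC1D26) overlap other genes, and their reads may belong to either. Which strand was counted is not stated here.

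The partners through which these factors repress were read from the same libraries. Of 28 genes of the KRAB corepressor pathway 25 had a circle and 12 a linear value in all libraries, of which 1 rose and 2 fell, near the 10.8% and 23.8% of all hosts. Their median log2 change was -0.31, against -0.21 over all. EHMT1, the GLP methyltransferase, rose from 8.01 ± 0.690 to 16.2 ± 1.03 FPB (SD of 2 libraries; log2 change 1.02, limma adjusted p = 0.000775). HDAC2, a histone deacetylase of the NuRD complex, fell from 63.4 ± 2.86 to 22.0 ± 6.70 FPB (-1.56, adjusted p = 2.68e-07), and SMARCAD1, a chromatin remodeler that binds TRIM28, from 7.19 ± 0.0391 to 3.84 ± 0.872 FPB (-0.92, adjusted p = 0.00382). Without control replicate 1 EHMT1 and SMARCAD1 did not pass (adjusted p = 0.110 and 0.150), nor did SMARCAD1 without control replicate 2 (0.150). In their summed circles 0 of 10 passed in either direction (limma; unadjusted 1 higher and 1 lower).

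Of 22 BTB and zinc finger corepressors 16 had a circle and 10 a linear value, of which 5 rose and 1 fell, with a median of 0.70. Over all hosts 10.8% rose and 23.8% fell, with a median of -0.21. CTBP1, a corepressor that binds many zinc finger proteins, rose from 13.5 ± 3.11 to 35.7 ± 10.1 FPB (SD of 2 libraries; log2 change 1.39, limma adjusted p = 6.42e-06). CTBP2, SIN3B and BCOR rose by 1.30, 0.93 and 0.80 on the log2 scale. CUL3, the ubiquitin ligase scaffold that uses BTB proteins as adaptors, fell from 21.7 ± 0.864 to 10.3 ± 2.59 FPB (-1.10, adjusted p = 0.000325). Without control replicate 1 CUL3, SIN3B and BCOR did not pass (adjusted p = 0.0631, 0.158 and 0.226), nor did SIN3B and BCOR without control replicate 2 (0.0662 and 0.0912). Their summed circles gave 0 of 9 in either direction (limma; unadjusted 0 and 0).

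Among 77 C2H2 factors known under other names 48 had a circle, and of 18 with a linear value 4 rose and 2 fell, where over all hosts 10.8% rose and 23.8% fell. Their median was 0.06, against -0.21. BCL11B, a factor of T cells and neurons, rose from 0.215 ± 0.135 to 1.26 ± 0.298 FPB (SD of 2 libraries; log2 change 2.47, limma adjusted p = 3.67e-10). ZFHX3, GLI3 and PRDM4 rose by 1.68, 1.24 and 0.98 on the log2 scale, while ZFX and SP3 fell by 1.16 and 0.65. Without control replicate 1 GLI3 and PRDM4 did not pass (adjusted p = 0.0768 and 0.161), nor did ZFX without control replicate 2 (0.0719), and SP3 lost its call without any library other than KD replicate 2 (0.145 to 0.475). In summed circles 1 of 20 rose and 0 fell (limma). It was ZFHX3, whose circles went from 0.172 ± 0.171 to 1.20 ± 0.188 FPB (SD of 2 libraries; log2 change 2.87, SE 0.70, adjusted p = 0.0379), and it did not pass without KD replicate 1 (0.889) or without KD replicate 2 (0.507).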

How the data were processed

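Total RNA of 4 libraries was depleted of rRNA and prepared with a directional kit, per the labels' protocols. bcl2fastq 2.20, Bowtie2 2.3.5 and hg38 were used, per the submitters' processing notes; which program called the circles is not stated in these sources. The deposited FPBcirc is a depth-scaled signal per mapped gigabase, and the deposited CIRCscore is a ratio of circle to linear signal, per the file headers. Every nonzero FPBcirc was a whole multiple of 1 read in its library (100% of values, tolerance 0.001 of a read), so reads and depth were recovered.

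Positions were converted to count from 1. Linear levels were derived as (FPBcirc + 0.01) / CIRCscore minus 0.01, and the median over a host's circles was taken. The offset of 0.01 in both terms is an assumption. With it, the circles of a host gave the same linear value within 1% in 99.9% of 12082 pairs of host and library, against 7.47% with no offset. CIRCscore was tested with a pseudocount of 0.00448, for circles with a score in all 4 libraries. Fits used limma 3.58.1 in R 4.3.3 (variance trend, robust, two-sided) over the whole table with Benjamini-Hochberg adjustment and a threshold of 0.05. edgeR 4.0.16 and DESeq2 1.42.0 ran on recovered reads as alternatives, exact tests used scipy 1.17.1, and plots matplotlib 3.10.9. The fits were also run on simulated data. The outcome is not reported here, so it says nothing about the calls.

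The text names members past the threshold, or else those of smallest p up to 6 per direction. It also names the 10 most abundant circles and the hosts with most circles. Per list, genes past the threshold are named. Members and lists were chosen with earlier results of these data known. All 214 hosts matched a RefSeq gene. Replicate numbers were not used to pair the libraries in the main fits. The values of 1 list gene are not reported here. Protein-based classes were not used here, for want of protein sequences.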

Additional observations from a re-analysis of the deposited data

How the results depend on the processing

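Of the 23 zinc finger calls in linear RNA, those of ZBTB46, ZNF536, ZNF236 and ZNF644 held under all 10 alternatives and the others were lost in 1 to 5 of them. No single called host changed direction. Linear RNA rose in 15 and fell in 8; limma without trend and robust moderation gave 7 and 3, and leaving out a library gave 4 to 13 rises and 2 to 16 falls. Summed circles rose in 0 and fell in 2; the falls were 1 with edgeR, 0 with a filter of 1 pseudocount, 0 without trend and robust moderation and 0 to 6 with a library left out, and the rises 0 to 5. Without control replicate 1 there were 5 rises and 6 falls, without control replicate 2 there were 3 and 4, and without either KD library 0 and 0. Over all hosts 12.5% and 13.2%, then 14.1% and 10.3%, and 0% and 0% were called. Single circles rose in 0 and fell in 0; DESeq2 gave 1 fall, a filter of 15 pseudocounts 4, and leaving out a library 0 to 10 rises (10 without control replicate 1) and 0 to 6 falls (6 without either control). Over all circles 13.2% rose and 18.1% fell without control replicate 1, and 14.4% and 13.9% without control replicate 2, so the members' counts are read against those. CIRCscore gave 0 and 0. A filter of 15 pseudocounts gave 2 falls among 16 circles, where 59 of all 687 fell. For FPBcirc the 4 falls under that filter were among 17 circles, where 142 of all 739 fell. Leaving out a library gave calls in some fits, as it did over all circles. The number of circles read had a KD to control ratio of 2.91, and 1.75 at equal depth. The ratio of circles to linear RNA stayed without a call. The cause of these shifts was not tested.

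Fitting the replicate number as a block gave 3 falls among single circles, where 36 rose and 98 fell of all 2427. Among summed circles it gave 1 rise and 3 falls, against 83 and 132 of all 2393 hosts. CIRCscore had 1 fall, against 1 rise and 8 falls among all 1823 circles. Linear RNA had 14 rises and 11 falls, against 372 and 785 of all 2547 hosts. Deviations of same-numbered libraries correlated at 0.0029, -0.0026, 0.0271 and 0.0908 for circles, summed circles, CIRCscore and linear RNA. These correlations were small but rest on 2 replicate numbers, so they cannot decide whether the replicate number had a shared effect. Without the block 2 rose and 11 fell of all 2427 circles, and 275 rose and 605 fell of all 2547 hosts in linear RNA. Whether same-numbered cultures were handled together cannot be told from these values. Centring each library on its median moved the median over all circles from -0.33 to 0.17 (zinc finger -0.09 to 0.41, a change of sign), that of summed circles from -0.06 to 0.04 (zinc finger -0.05 to 0.04), that of linear RNA from -0.21 to -0.03 (zinc finger 0.09 to 0.27, with 18 rises and 6 falls) and that of CIRCscore from -0.42 to 0.06 (zinc finger -0.45 to 0.03). Over all 2547 hosts the centring gave 560 rises and 592 falls in linear RNA. With a filter of 1 pseudocount the zinc finger medians of circles and summed circles were 0.02 and 0.23, and without control replicate 2 that of summed circles was -0.30. Depth limits low circles most, since 1 read is worth 0.0511 and 0.0489 FPB in the controls and nothing below that could be seen there. Alternatives that need protein sequences were not run.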
